A study of Mus musculus with 24 samples.

Results

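Wild-type cortex was compared with wild-type hippocampus in 6 libraries, 3 per region, out of the 24 libraries of the series. These 6 were taken by region and genotype from the sample titles, with no measured value used. The series measured total RNA depleted of ribosomal RNA in 4 dissected regions of C57BL/6 mouse brain (cerebellum, cortex, hippocampus and olfactory bulb), each from wild-type mice and from mice lacking the Cdr1as locus, with 3 libraries per region and genotype. The wild-type cortex and hippocampus groups share strain and genotype and differ by region. The labels name no treatment, age or sex, and do not say whether same-numbered cortex and hippocampus samples came from 1 mouse or whether replicates were separate animals, so each p-value is set against the variation among these libraries, part or all of which may be technical. The 6 knockout libraries of the same regions were used to repeat the regional contrast in samples that the wild-type fit did not use. They also entered the test of region by genotype and an alternative fit over all 24 libraries.

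The neocortex is a layered sheet. Upper-layer excitatory neurons connect cortical areas with each other, deep-layer neurons project to the thalamus, brain stem and spinal cord, and inhibitory interneurons are spread through all layers. The hippocampus is built around a loop of excitatory cells, from the granule cells of the dentate gyrus through the pyramidal cells of CA3 to those of CA1, and is known for its part in forming memories of places and events. Both arise from the dorsal forebrain and hold the same broad classes of glia and inhibitory neurons, so the excitatory cell types are the best-known difference between them.

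Gene counts per library were 16.88, 9.90 and 27.36 M in cortex wild type 1, 2 and 3 and 26.43, 15.89 and 20.62 M in hippocampus wild type 1, 2 and 3, with 20024 to 22114 genes detected. Replicates of a region correlated at r = 0.953 to 0.985 on log2 CPM (counts scaled to a common library size) across genes, and the lowest value joined cortex wild type 1 and 2. Reads assigned to no gene made up 20.3, 56.2 and 34.9% of the cortex libraries and 37.0, 51.3 and 52.6% of the hippocampus libraries, ranges that overlap. CPM values below are given in the order of replicates 1, 2 and 3, and log2 fold changes are positive where cortex was higher.

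Of 15952 genes tested with edgeR's quasi-likelihood test, 1232 (7.72%) passed a Benjamini-Hochberg adjusted p of 0.05. Cortex was higher for 819 of them (5.13% of the genes tested) and hippocampus for 413 (2.59%). This split moved with the scaling and with 1 library: it was 751 and 454 with RLE size factors, 707 and 485 with upper-quartile scaling, and 941 and 799 without cortex wild type 2. The difference was at least 2-fold for 759 of the 1232, at least 4-fold for 248 and at least 8-fold for 98, and 1167 were protein-coding. The 3 cortex values and the 3 hippocampus values did not overlap for any of the 1232, whereas non-overlap occurred in 25.2% of all genes tested. The median log2 fold change of all genes was 0.01. The number of calls depended on single libraries: 977, 1740 and 640 genes passed without cortex wild type 1, 2 and 3, and 799, 756 and 752 without hippocampus wild type 1, 2 and 3. Of the 1232, 565 (375 higher in cortex and 190 in hippocampus) passed in each of the 6 fits that left out 1 library. All adjusted p-values are from edgeR unless another tool is named. Genes named below as higher in a region passed in each of those 6 fits unless a lost call is given. The plot of all genes shows the calls over the whole range of expression.

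**Figure D1:**
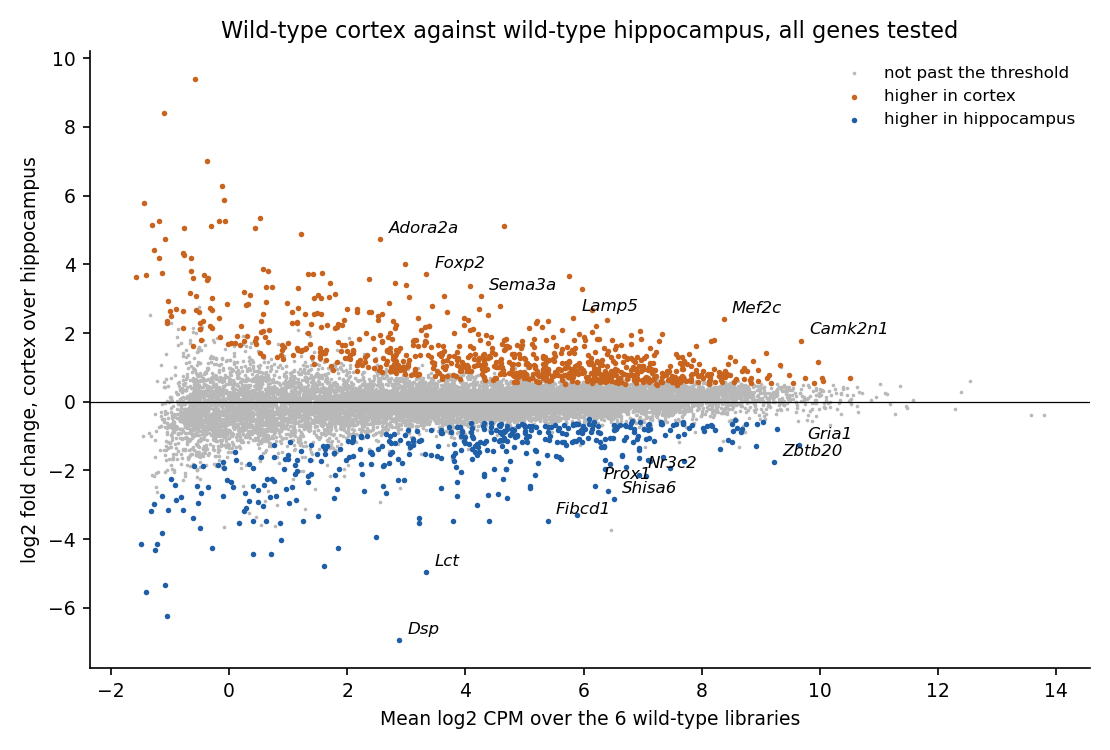
Log2 fold change of cortex over hippocampus in wild type (vertical axis) against mean log2 CPM over the 6 libraries (horizontal axis), 1 point per gene tested. The 819 genes higher in cortex are orange, the 413 higher in hippocampus are blue and genes that did not pass are grey, and Dsp at −6.93 and Adora2a at 4.74 are among the labelled extremes.

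Markers of neighbouring tissue differed between the dissections. The 16 listed genes of striatal projection neurons, the cells of the basal ganglia beneath the cortex, summed to 1448, 2136 and 2345 CPM in cortex and to 460, 561 and 522 CPM in hippocampus, and the groups did not overlap. No gene of the list was at 0 in all 3 libraries of a region. Of the 15 that were tested, 14 were higher in cortex, all 14 in each fit that left out 1 library, and the list median was 2.80. In knockout the same sum was 2001, 2139 and 1425 CPM in cortex and 485, 524 and 519 CPM in hippocampus. Among the tested members was Adora2a, an adenosine receptor of the striatum's indirect pathway. Adora2a lay at 21.5, 24.2 and 42.3 CPM against 1.27, 1.11 and 1.02 CPM (log2 fold change 4.74, SE 0.32, adjusted p = 0.000115). Drd2 and Drd1, the main striatal dopamine receptors, differed by 4.01 (SE 0.29) and 3.37 (SE 0.29), and Penk, the enkephalin precursor, by 3.67 (SE 0.23). Cortex wild type 1 had the lowest value of the 3 cortex libraries for the summed list and for each of these 4 genes. Some of these genes are also active in cortical neurons, 7 of the 16 stand in other lists used below, and the part of striatal tissue in the results was not tested. In bulk tissue, fewer cells of a type and less RNA per cell cannot be told apart.

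Choroid plexus, the epithelium in the ventricles that makes cerebrospinal fluid, varied most between libraries. Its 17 listed genes summed to 277, 95.1 and 27.4 CPM in cortex and to 2353, 39.9 and 1991 CPM in hippocampus. Hippocampus wild type 2 thus lay far below hippocampus wild type 1 and 3. Ttr, which encodes the thyroxine carrier transthyretin, lay at 2078, 4.32 and 1555 CPM in hippocampus and at 205, 55.3 and 2.72 CPM in cortex. All 16 tested members had a log2 fold change below 0 with a median of −2.70, and only Kl passed (−2.80, adjusted p = 0.0262), a call lost in 5 of the 6 fits that left out 1 library, with adjusted p up to 0.181 there and up to 0.333 over the other settings. In knockout the sum was 135, 28.7 and 251 CPM in cortex and 48.1, 48.6 and 40.9 CPM in hippocampus. Hippocampus wild type 2 therefore lay near the knockout hippocampus libraries, and hippocampus wild type 1 and 3 stood apart from these. Hypothalamic and pituitary genes summed to 75.5, 17.2 and 47.0 CPM in cortex and 5.54, 10.9 and 6.04 CPM in hippocampus. Trh, a releasing hormone of the thyroid axis, was higher in cortex (9.99, 4.28 and 8.42 CPM against 0.231, 0.185 and 0.139 CPM), and so was Oxt, the oxytocin precursor (8.56, 1.65 and 6.34 CPM against 0.115, 0.0617 and 0.0928 CPM). Avp, the vasopressin precursor, also passed (12.6, 0.583 and 4.34 CPM against 0.269, 0.123 and 0.0464 CPM), but not without any 1 of the hippocampus libraries (adjusted p = 0.0586, 0.0740 and 0.0746) or with no filter on low counts (adjusted p = 0.139). Thalamic genes summed to 447 to 576 CPM in cortex and 262 to 318 CPM in hippocampus with 4 of 11 tested members higher in cortex, 2 of them in each fit that left out 1 library, among them Rora and Zfhx3, the latter not in the fits over 12 and 24 libraries (adjusted p = 0.133 and 0.197). Olfactory bulb genes summed to 80.5 to 115 CPM against 56.6 to 57.7 CPM with 5 of 9 higher in cortex, among them Th, which encodes tyrosine hydroxylase, and Sp8. Cerebellar genes summed to 1149 to 1295 CPM against 815 to 889 CPM with 3 of 9 higher in cortex, 1 of them (Car8) in each fit that left out 1 library. Nearly all of this sum was 1 gene, Itpr1, at 1081, 1089 and 1230 CPM in cortex and 777, 856 and 778 CPM in hippocampus. Atoh1, a defining marker of granule cell precursors, was at 0 in all 3 cortex libraries. Its level in the cerebellum libraries was not examined, so this 0 is a description only. Meningeal genes overlapped between regions (512 to 1202 CPM against 496 to 983 CPM), and of 21 only Dcn passed, higher in hippocampus and not without cortex wild type 3 (adjusted p = 0.0797). The part of these tissues in the other results was not tested.

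**Figure D2:**
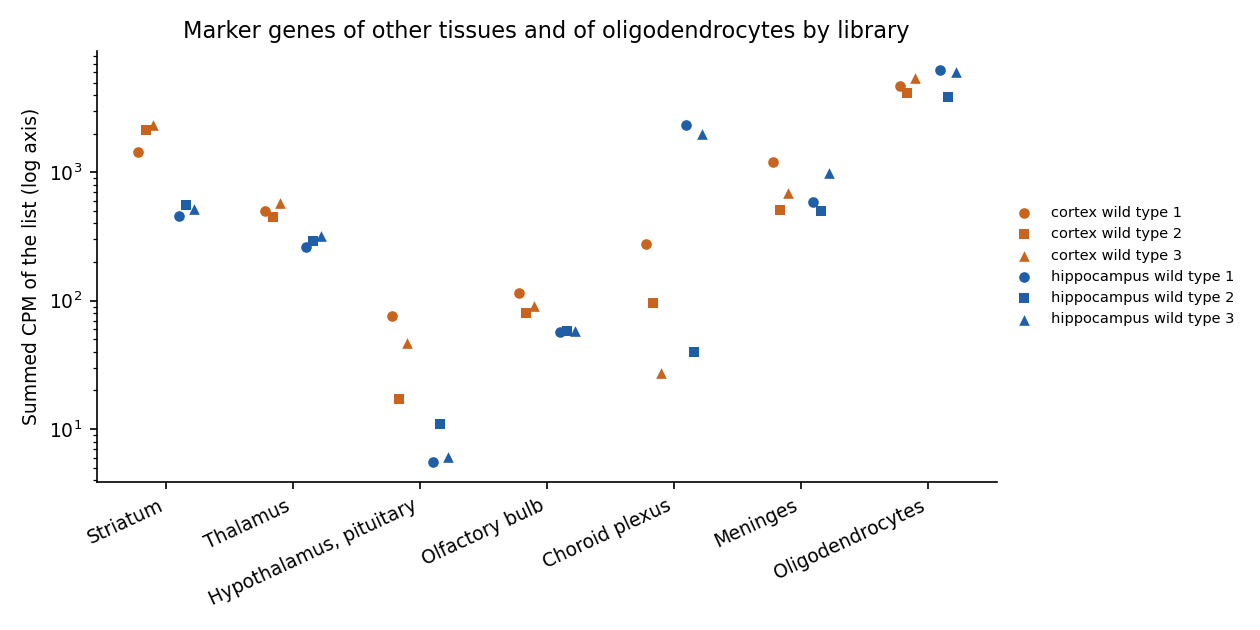
Summed CPM of marker lists (vertical axis, log scale) in each wild-type library, with cortex in orange, hippocampus in blue and the replicate given by the symbol. Striatal genes sit between 1448 and 2345 CPM in cortex and between 460 and 561 CPM in hippocampus, and choroid plexus genes range from 39.9 to 2353 CPM within hippocampus.

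Most upper-layer neuron genes were higher in cortex. Of 16 tested, 12 were higher in cortex and 0 in hippocampus, all 12 in each fit that left out 1 library, and the median log2 fold change was 1.46 (1.36 to 1.5 over the alternative fits). Lamp5, a lysosome-associated protein of superficial neurons, lay at 149, 115 and 125 CPM in cortex and 28.5, 22.6 and 22.9 CPM in hippocampus (2.45, SE 0.17, adjusted p = 0.000115). Mef2c, a factor that acts in synapse development, lay at 791, 837 and 648 CPM against 130, 128 and 185 CPM (2.41, SE 0.19, adjusted p = 0.000162). Each of the 3 cortex libraries lay above each hippocampus library for these genes. Rorb, a layer 4 nuclear receptor, differed by 1.47 (SE 0.14), Cux2, a homeobox factor of layers 2 to 4, by 1.82 (SE 0.28), Otof, a calcium sensor of membrane fusion, by 2.39 (SE 0.29), and Rspo1, a secreted enhancer of Wnt signalling, by 2.73 (SE 0.29). The 4 that did not pass were Whrn (0.64), Inhba (0.72), Kcnip2 (−0.43) and Scnn1a (−0.45).

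Deep-layer neuron genes divided between the regions. Of 27 tested, 11 were higher in cortex and 3 in hippocampus, and 9 of these 14 passed in each fit that left out 1 library. The list median of 0.07 moved between −0.17 and 0.14 over the alternative fits, so it has no direction. Tbr1, a T-box factor of corticothalamic neurons, lay at 144, 147 and 123 CPM in cortex and 44.4, 44.6 and 56.1 CPM in hippocampus (1.56, SE 0.15, adjusted p = 0.000447). Foxp2, a forkhead factor of layer 6, lay at 27.0, 45.0 and 39.5 CPM against 1.5, 2.65 and 4.69 CPM (3.71, SE 0.38, adjusted p = 0.000562). Syt6, a synaptotagmin, differed by 2.71 (SE 0.18) and Cplx3, a complexin of subplate neurons, by 1.89 (SE 0.25). Crym, a thyroid hormone binding protein, was higher in hippocampus at 217, 161 and 131 CPM against 47.6, 36.5 and 55.4 CPM (−1.81, SE 0.23, adjusted p = 0.00145). Fezf2, which specifies subcerebral projection neurons, was also higher in hippocampus (40.9, 43.1 and 31.0 CPM against 20.2, 19.3 and 19.5 CPM, −0.91, SE 0.17, adjusted p = 0.0115), though not without hippocampus wild type 2 (adjusted p = 0.0656) or cortex wild type 3 (adjusted p = 0.0737). Fezf2 was named after its values were seen. Tle4 (0.31, adjusted p = 0.211) and Bcl11b (−0.29, adjusted p = 0.307), 2 further deep-layer regulators, did not pass.

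Dentate granule cell genes were mostly higher in hippocampus where they passed, and included Dsp, the gene with the largest fold change towards hippocampus of all genes called. Of 20 tested, 10 were higher in hippocampus and 1 in cortex, with a median of −0.71, and 9 of the 10 passed in each fit that left out 1 library. Dsp, the desmosomal linker desmoplakin, lay at 91.2, 97.9 and 75.8 CPM in hippocampus and 1.44, 0.194 and 0.415 CPM in cortex (−6.93, SE 0.44, adjusted p = 0.000115). Lct, the intestinal lactase, lay at 67.5, 62.8 and 53.6 CPM against 2.31, 0.680 and 2.34 CPM (−4.96, SE 0.33, adjusted p = 0.000115). For both genes every hippocampus library lay far above every cortex library. Prox1, the homeobox factor that maintains granule cell identity, lay at 164, 203 and 157 CPM against 32.5, 26.2 and 34.3 CPM (−2.44, SE 0.18, adjusted p = 0.000115). C1ql2, a secreted protein of mossy fibre synapses, differed by −3.52 (SE 0.39), Il16 by −3.47 (SE 0.22) and Tdo2, a tryptophan-degrading enzyme, by −3.48 (SE 0.48). The other 9 members did not pass, among them Calb1 (0.30) and C1ql3 (−0.02), both of which cortical neurons express as well. Pdzd2 was the 1 member higher in cortex (0.67, SE 0.15), a call lost in 5 of the 6 fits that left out 1 library, with adjusted p up to 0.155, and with upper-quartile scaling (adjusted p = 0.0576).

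CA field genes pointed the same way in smaller numbers. Of 12 CA1 genes tested, 6 were higher in hippocampus and 0 in cortex, with a median of −0.85. Fibcd1, a membrane protein that binds acetylated structures, lay at 151, 157 and 133 CPM in hippocampus and 17.7, 7.1 and 13.2 CPM in cortex (−3.46, SE 0.30, adjusted p = 0.000251). Spink8, a protease inhibitor of the Kazal family, lay at 24.2, 11.9 and 10.7 CPM against 0.500, 1.17 and 0.793 CPM (−4.25, SE 0.43, adjusted p = 0.000515). Zbtb20, a zinc finger repressor that directs CA1 fate, lay at 1028, 1248 and 1113 CPM against 275, 385 and 310 CPM (−1.76, SE 0.16, adjusted p = 0.000369). Wfs1, the wolframin gene, is a CA1 marker that cortical neurons share, and it did not differ beyond its spread (107, 114 and 146 CPM in hippocampus, 168, 104 and 135 CPM in cortex, adjusted p = 0.665). Of 21 genes of CA2, CA3 and mossy cells, 5 were higher in hippocampus and 2 in cortex, with a median of −0.48. Iyd, an iodotyrosine deiodinase that marks CA3 and mossy cells, differed by −3.46 (SE 0.37), St18 by −1.97 (SE 0.20) and the kainate receptor subunit gene Grik4 by −1.59 (SE 0.18). Drd2 and Coch (2.10, SE 0.28) were the 2 higher in cortex. In the plot of marker genes by library the 2 regions separated for every marker called, as they did for all 1232 genes called.

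**Figure D3:**
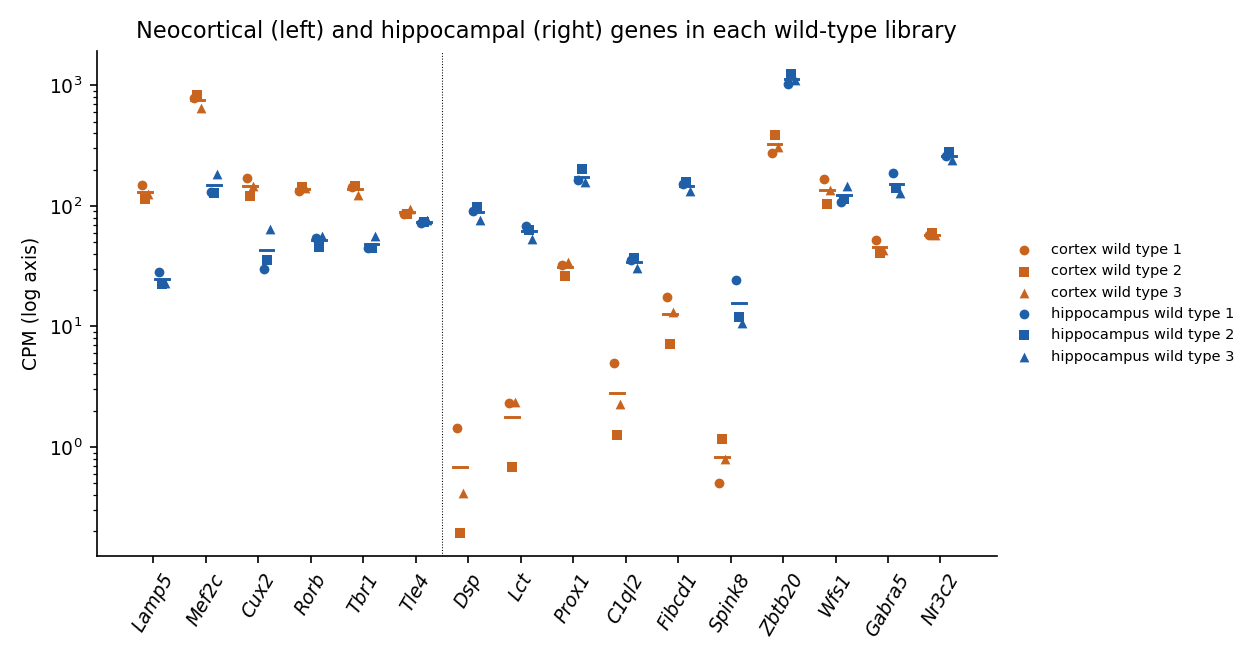
CPM (vertical axis, log scale) of 6 neocortical genes on the left and 10 hippocampal genes on the right in each wild-type library, with short lines at the mean of 3 libraries. Cortex (orange) and hippocampus (blue) do not overlap except for Wfs1, and for Tle4 the gap is small (85.8 to 94.7 CPM against 71.9 to 76.8 CPM).

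The promoters of the most different genes held fewer CpG dinucleotides than those of other tested genes. RefSeq windows from 250 bases before to 50 after a start site (GRCm38.p6, not the build the reads were counted on) were found for 11415 of the 15952 genes tested. The ratio of observed to expected CpG had a median of 0.75 in tested genes, 0.68 in the 600 of 819 genes higher in cortex that had a window and 0.62 in the 280 of 413 higher in hippocampus. It was 0.48 in 105 genes higher in cortex by at least 4-fold and 0.32 in 59 higher in hippocampus by at least 4-fold. With the highest value over a gene's listed starts in place of the first, the medians in the same order were 0.77, 0.72, 0.66, 0.52 and 0.37. These are descriptions, with no test. The range is wide within each direction, as 6 genes show that were chosen after their values were seen, 3 higher in hippocampus (Dsp, Lct, Fibcd1) and 3 higher in cortex (Lamp5, Sema3a, Rspo1). Their 250 bases before the start are printed 5′ to 3′ on the gene's strand, with each CpG in capitals.
Dsp, chr13:38151044-38151293, plus strand: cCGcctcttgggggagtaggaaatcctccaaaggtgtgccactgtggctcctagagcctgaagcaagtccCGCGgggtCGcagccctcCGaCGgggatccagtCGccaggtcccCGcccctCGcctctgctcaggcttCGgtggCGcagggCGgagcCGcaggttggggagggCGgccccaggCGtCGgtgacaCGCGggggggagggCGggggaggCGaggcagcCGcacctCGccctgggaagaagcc
Lct, chr1:128328319-128328568, minus strand: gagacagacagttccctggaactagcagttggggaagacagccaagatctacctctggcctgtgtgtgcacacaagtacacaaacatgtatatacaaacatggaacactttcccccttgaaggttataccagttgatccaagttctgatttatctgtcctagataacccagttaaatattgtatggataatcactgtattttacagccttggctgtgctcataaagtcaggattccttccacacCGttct
Fibcd1, chr2:31846006-31846255, minus strand: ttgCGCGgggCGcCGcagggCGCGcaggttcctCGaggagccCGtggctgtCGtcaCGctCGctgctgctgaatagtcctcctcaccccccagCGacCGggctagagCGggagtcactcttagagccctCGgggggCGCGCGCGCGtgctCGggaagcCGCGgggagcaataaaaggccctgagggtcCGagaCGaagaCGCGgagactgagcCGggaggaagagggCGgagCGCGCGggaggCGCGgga
Lamp5, chr2:136052089-136052338, plus strand: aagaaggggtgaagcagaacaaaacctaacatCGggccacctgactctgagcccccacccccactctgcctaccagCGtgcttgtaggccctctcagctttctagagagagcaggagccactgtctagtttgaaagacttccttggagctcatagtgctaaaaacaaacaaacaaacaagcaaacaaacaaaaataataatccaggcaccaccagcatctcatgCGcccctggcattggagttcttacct
Sema3a, chr5:13396534-13396783, plus strand: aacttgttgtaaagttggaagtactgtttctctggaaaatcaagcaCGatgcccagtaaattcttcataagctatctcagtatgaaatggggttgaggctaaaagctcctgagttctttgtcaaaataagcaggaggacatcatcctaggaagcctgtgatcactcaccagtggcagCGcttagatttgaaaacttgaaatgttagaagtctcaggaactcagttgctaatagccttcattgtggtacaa
Rspo1, chr4:124986180-124986429, plus strand: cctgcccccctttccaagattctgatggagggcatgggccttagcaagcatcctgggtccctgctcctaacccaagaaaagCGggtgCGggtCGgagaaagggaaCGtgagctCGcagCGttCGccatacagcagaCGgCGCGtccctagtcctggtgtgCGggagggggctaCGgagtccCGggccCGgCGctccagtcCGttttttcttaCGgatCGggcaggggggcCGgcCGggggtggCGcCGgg
The Lct sequence holds 1 CpG, Sema3a 2 and Lamp5 3, against 22 in Dsp, 22 in Rspo1 and 34 in Fibcd1, so that both kinds of promoter occur among genes higher in either region. The observed to expected ratios over the whole windows were 0.07 for Lct, 0.16 for Sema3a and for Lamp5, 0.69 for Dsp, 0.82 for Rspo1 and 1.14 for Fibcd1. Lamp5 has 2 listed starts and the first was used, and the other 5 genes have 1. The E-box CAGATG, read on both strands, occurred in 11.7% of the windows of tested genes, in 12% for genes higher in cortex and in 13.9% for genes higher in hippocampus, and in 16.2% (17 genes) and 23.7% (14 genes) of those differing by at least 4-fold. Over all 27025 genes with a window, tested or not, it occurred in 17.2%, and their median CpG ratio was 0.39. The cAMP response element TGACGTCA occurred in 3.14% of the windows of tested genes, in 2.5% (15 genes) for genes higher in cortex and in 1.79% (5 genes) for genes higher in hippocampus, and in 3.81% (4 genes) and 1.69% (1 gene) of those differing by at least 4-fold. The EGR motif GCGTGGGCG occurred in 1.24% of the windows of tested genes, in 3 genes higher in cortex and 1 higher in hippocampus, and in 0 differing by at least 4-fold. Such small counts give no order between the sets. No window of the 6 genes printed held any of these 3 motifs.

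Among 48 forebrain transcription factors tested, 12 were higher in cortex and 9 in hippocampus, and 14 of the 21 passed in each fit that left out 1 library. The 12 include Mef2c, Foxp2, Tbr1, Rorb and Cux2, described above, and Meis2 (1.80, SE 0.19), a homeobox factor that is also active in the striatum. The 9 include Prox1, Zbtb20, Lhx9 (−2.45, SE 0.31), a LIM homeobox factor not called in the fits over 12 and 24 libraries (adjusted p = 0.0748 and 0.0745), and Neurod6 (−1.33, SE 0.21), a basic helix-loop-helix factor of excitatory neurons that was named after its values were seen. Lhx2, the selector gene of the early cortical field, lay at 53.3, 35.2 and 35.1 CPM in cortex and 41.0, 38.3 and 41.8 CPM in hippocampus (0.08, adjusted p = 0.874). Emx2, a patterning gene of the medial cortex, lay at 14.7, 11.5 and 9.77 CPM against 14.9, 18.5 and 14.8 CPM (−0.37, adjusted p = 0.404). Their values overlapped or nearly met.

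**Figure D4:**
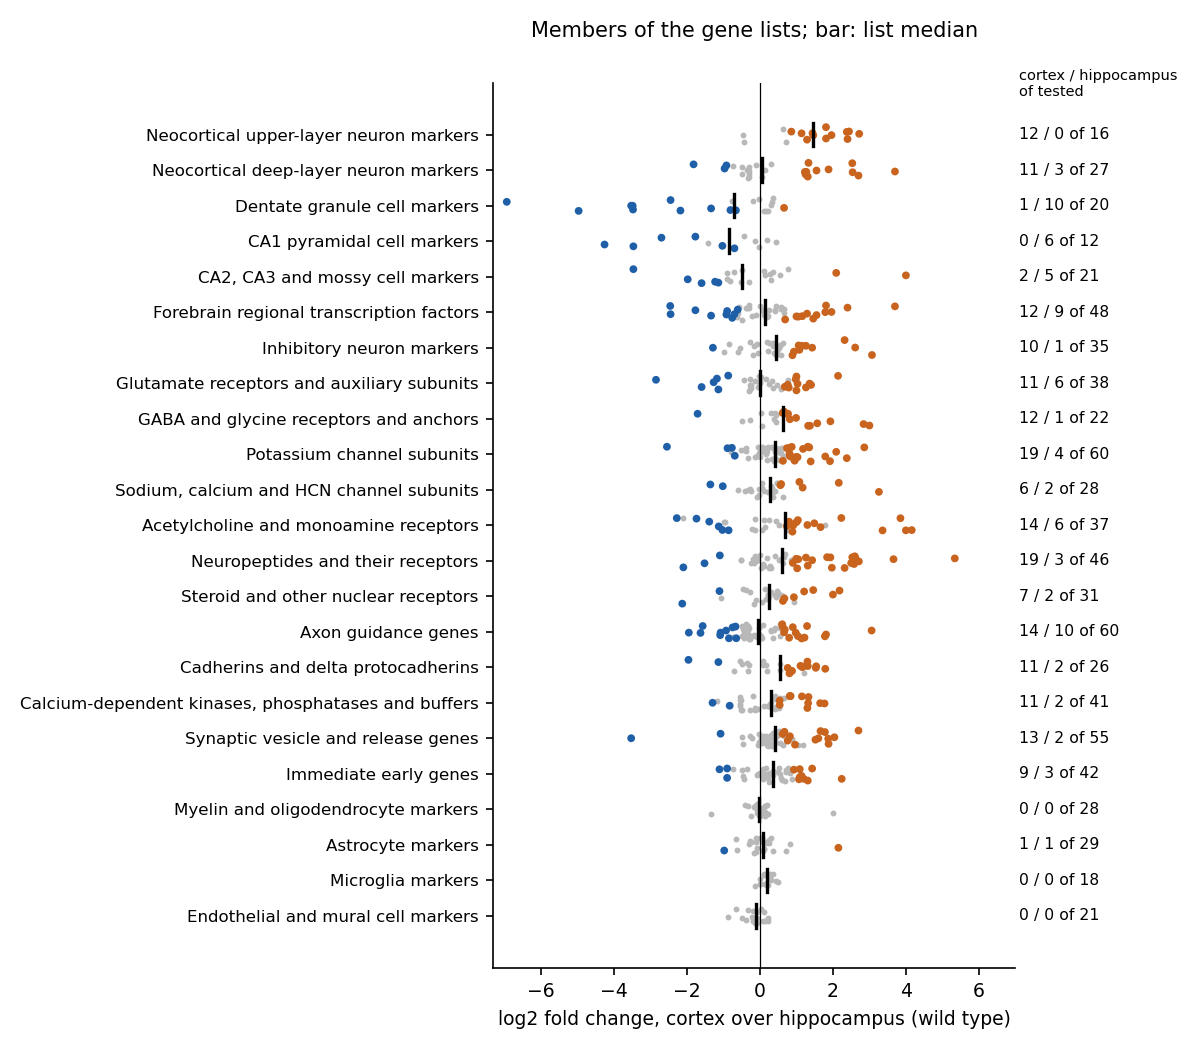
Log2 fold change of cortex over hippocampus in wild type (horizontal axis) for the tested members of 23 lists, 1 point per gene, orange or blue where called higher in cortex or hippocampus and grey otherwise, with a bar at the list median. Numbers on the right count the calls in each direction, for example 12 and 0 of 16 upper-layer genes and 0 and 0 of 28 oligodendrocyte genes.

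Excitatory receptors differed subunit by subunit. Of 38 genes for glutamate receptors and their auxiliary subunits, 11 were higher in cortex and 6 in hippocampus, and 10 of the 17 passed in each fit that left out 1 library. Gria1, the GluA1 subunit of AMPA receptors, lay at 493, 558 and 495 CPM in cortex and 1148, 1553 and 1128 CPM in hippocampus (−1.26, SE 0.17, adjusted p = 0.00174). Shisa6, an auxiliary subunit that slows AMPA receptor desensitization, lay at 37.1, 30.6 and 33.1 CPM against 237, 277 and 232 CPM (−2.84, SE 0.16, adjusted p = 0.000115). Grin2a, the GluN2A subunit of NMDA receptors, lay at 177, 191 and 210 CPM against 326, 417 and 341 CPM (−0.86, SE 0.15, adjusted p = 0.00702). The AMPA receptor partners Gsg1l (2.15, SE 0.28), Cacng3 (1.41, SE 0.14) and Cacng4 (1.27, SE 0.15) were higher in cortex. Gsg1l lay at 80.0, 61.1 and 73.6 CPM in cortex and 10.4, 15.9 and 24.1 CPM in hippocampus. The family therefore held members called in either direction, including AMPA receptor partners in both.

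Inhibitory receptors were called in both regions. Of 22 genes for GABA and glycine receptors and their anchors, 12 were higher in cortex and 1 in hippocampus, with a median of 0.65, and 6 of the 13 passed in each fit that left out 1 library. The 1 higher in hippocampus was Gabra5, the α5 subunit of extrasynaptic receptors, at 189, 142 and 128 CPM against 52.2, 40.3 and 43.2 CPM in cortex (−1.70, SE 0.19, adjusted p = 0.000925). Higher in cortex were Gabrq, the θ subunit, at 11.7, 5.06 and 7.89 CPM against 0.500, 1.36 and 1.39 CPM (3.01, SE 0.45, adjusted p = 0.00348), Glra3, a glycine receptor subunit (1.94, SE 0.22, adjusted p = 0.0655 in the fit over 24 libraries), and, named after their values were seen, Gabrd (1.58, SE 0.23) and Gabra3 (1.33, SE 0.14). In knockout the receptor list leaned less to cortex, with 7 higher in cortex and 4 in hippocampus of 21 and a median of 0.27. Among 35 inhibitory neuron genes, 10 were higher in cortex and 1 in hippocampus, and 5 of the 11 passed in each fit that left out 1 library. Gad2, a GABA-synthesizing enzyme, lay at 330, 285 and 310 CPM in cortex and 159, 144 and 149 CPM in hippocampus (1.09, SE 0.13, adjusted p = 0.00118) and was named after its values were seen. Gad1, the other such enzyme, lay at 460, 314 and 437 CPM against 322, 251 and 293 CPM and did not pass (0.54, adjusted p = 0.120). Tac1, the precursor of substance P, differed by 2.62 (SE 0.26, adjusted p = 0.0747 in the fit over 24 libraries) and Crh, the stress peptide, by 2.33 (SE 0.37). Among markers of interneuron classes, Pvalb (0.45) and Sst (−0.14) did not pass. Vip, the gene of vasoactive intestinal peptide, was higher in cortex at 40.4, 27.5 and 29.0 CPM against 17.8, 10.4 and 13.5 CPM (1.27, SE 0.24, adjusted p = 0.0110), though not without hippocampus wild type 2 (adjusted p = 0.0542) or 3 (adjusted p = 0.0618). Vip was named after its values were seen. Striatal projection neurons also make GABA, and the part of striatal tissue in these calls was not tested. Kit, a receptor tyrosine kinase of some interneurons, was higher in hippocampus (−1.28, SE 0.15).

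Ion channel genes were called in both regions. Of 60 potassium channel genes, 19 were higher in cortex and 4 in hippocampus, with a median of 0.42, and 14 of the 23 passed in each fit that left out 1 library. Kcnh5, a channel of the ether-à-go-go family, lay at 97.6, 101 and 104 CPM in cortex and 23.7, 22.4 and 27.3 CPM in hippocampus (2.10, SE 0.14, adjusted p = 0.000115). Kcnh4 (2.87, SE 0.44) and Kcna5 (2.39, SE 0.24) were higher in cortex too, and Kcng2, a silent subunit, was higher in hippocampus (−2.54, SE 0.29). Of 28 sodium, calcium and HCN channel genes, 6 were higher in cortex and 2 in hippocampus, of which 3 and 2 passed in each fit that left out 1 library. Scn4b, a sodium channel β subunit on the list of striatal genes, lay at 139, 177 and 274 CPM against 21.3, 17.5 and 24.5 CPM (3.27, SE 0.26). Cacna1h, a T-type calcium channel, lay at 77.1, 67.2 and 81.9 CPM in cortex and 166, 244 and 189 CPM in hippocampus (−1.35, SE 0.18, adjusted p = 0.00173).

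Of 37 acetylcholine and monoamine receptor genes, 14 were higher in cortex and 6 in hippocampus, with a median of 0.70 (0.49 to 0.70 over the alternative fits), and 12 of the 20 passed in each fit that left out 1 library. Dopamine receptors were called in both directions: Drd5 was higher in hippocampus at 18.5, 16.4 and 12.8 CPM against 3.31, 3.31 and 2.94 CPM (−2.27, SE 0.22, adjusted p = 0.000429), while Drd1, Drd2 and Drd3 were higher in cortex. Drd1 and Drd2 were described above with the striatal genes, and the part of striatal tissue in these calls was not tested. Serotonin receptors were called in both directions as well. Htr1d lay at 4.12, 5.54 and 5.4 CPM in cortex and 0.500, 0.247 and 0.279 CPM in hippocampus (3.86, SE 0.37), and Htr2a, the receptor of psychedelic drugs, at 40.0, 46.3 and 42.8 CPM against 14.5, 14.1 and 13.4 CPM (1.67, SE 0.15). Htr4 lay at 7.06, 7.29 and 8.11 CPM in cortex and 25.9, 26.6 and 25.1 CPM in hippocampus (−1.73, SE 0.16). Chrna7, the α7 nicotinic receptor, was higher in hippocampus (−1.12, SE 0.15) and Chrm2, a muscarinic receptor, in cortex (1.31, SE 0.18). Htr2a, Htr4, Chrna7 and Chrm2 were named after their values were seen.

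Of 46 neuropeptide and peptide receptor genes, 19 were higher in cortex and 3 in hippocampus, with a median of 0.62, and 12 of the 22 passed in each fit that left out 1 library. Npy2r, a neuropeptide Y receptor, was higher in hippocampus at 48.9, 37.9 and 40.4 CPM against 12.6, 7 and 8.98 CPM (−2.09, SE 0.23, adjusted p = 0.000863). Penk lay at 143, 208 and 222 CPM in cortex and 19.0, 14.8 and 12.7 CPM in hippocampus (3.67, SE 0.23, adjusted p = 0.000115). Cckbr, the brain receptor for cholecystokinin, lay at 55.0, 47.0 and 47.7 CPM against 7.62, 6.97 and 12.7 CPM (2.51, SE 0.23, adjusted p = 0.000378) and Pdyn, the dynorphin precursor, at 37.2, 28.7 and 43.2 CPM against 12, 8.09 and 8.50 CPM (1.98, SE 0.23). Cckbr and Pdyn were named after their values were seen. Penk was described above with the striatal genes, and the part of striatal tissue in these calls was not tested.

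Of 31 nuclear receptor genes, 7 were higher in cortex and 2 in hippocampus, of which 4 and 1 passed in each fit that left out 1 library. Nr3c2, the mineralocorticoid receptor that binds corticosterone with high affinity, lay at 56.9, 59.3 and 56.8 CPM in cortex and 261, 281 and 238 CPM in hippocampus (−2.12, SE 0.14, adjusted p = 0.000115). Rarb, a retinoic acid receptor, and its partner Rxrg, which is on the list of striatal genes, were higher in cortex by 2.19 (SE 0.25) and 2.01 (SE 0.26). They also lead the retinoic acid list, where 3 of 16 were higher in cortex, 2 of them in each fit that left out 1 library, and 0 in hippocampus. Glucocorticoid response genes were called near the background, 2 of 20 higher in cortex, and neither Cdkn1a nor Klf9 passed in each fit that left out 1 library (adjusted p up to 0.0630 and 0.127).

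Secreted signals and guidance cues were called in both directions. Of 60 axon guidance genes, 14 were higher in cortex and 10 in hippocampus, and 6 of each passed in each fit that left out 1 library. Sema3a, a repellent semaphorin that is also part of perineuronal nets, lay at 61.5, 53.6 and 51.0 CPM in cortex and 5.89, 4.94 and 9.61 CPM in hippocampus (3.07, SE 0.25, adjusted p = 0.000196). Plxnd1, a semaphorin receptor, differed by 1.82 (SE 0.23) and Efna5, an ephrin, by 1.79 (SE 0.23). Slit1, a repellent ligand of Robo receptors, lay at 104, 75.1 and 90.2 CPM in cortex and 304, 431 and 339 CPM in hippocampus (−1.94, SE 0.19, adjusted p = 0.000429), and Nrp1, the receptor component for Sema3a, at 62.7, 60.7 and 49.7 CPM against 178, 175 and 175 CPM (−1.56, SE 0.14). Nrp1 was named after its values were seen. Ligand and receptor component were thus called in opposite directions. Of 26 cadherins, 11 were higher in cortex and 2 in hippocampus (7 and 1 in each fit that left out 1 library), with Cdh7 (1.80, SE 0.24) and Cdh4 (1.54, SE 0.20) against Pcdh20 (−1.95, SE 0.19). Wnt pathway genes gave 5 and 2 of 44 (15.9% called, against 7.72% of all genes tested). Dkkl1 (3.76, SE 0.31) and Wnt9a (1.47, SE 0.23, adjusted p = 0.0703 in the fit over 24 libraries) were higher in cortex. The receptor kinase gene Ror1 (−1.84, SE 0.23) was higher in hippocampus. TGF beta and BMP genes gave 5 and 4 of 38, with Bmp3 (2.08, SE 0.28) and the BMP antagonist Chrdl1 (2.16, SE 0.28) higher in cortex and the nodal antagonist Lefty1 (−4.44, SE 0.52) and the BMP antagonist Chrd (−1.77, SE 0.22) higher in hippocampus. Growth factor genes gave 4 and 2 of 39 (15.4% called, with 2 and 1 in each fit that left out 1 library). Ntf3, the neurotrophin-3 gene, lay at 5.85, 4.57 and 3.57 CPM in hippocampus and 0.999, 0.486 and 0.755 CPM in cortex (−2.55, SE 0.36). Extracellular matrix genes were called near the background, 3 and 1 of 42 (1 and 1 in each fit that left out 1 library), with Spock3 higher in cortex (1.11, SE 0.14) and Adamts1, a protease, in hippocampus (−1.15, SE 0.20).

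Calcium signalling and release genes were called in both regions. Of 41 calcium-dependent kinases, phosphatases and buffers, 11 were higher in cortex and 2 in hippocampus, of which 6 and 2 passed in each fit that left out 1 library. In knockout, where 18.2% of all genes tested passed against 7.72% in wild type, the counts were 18 and 12. Calls rose there in other lists too, for example from 24 to 39 of 60 axon guidance genes, but not in all. GABA and glycine receptor genes went from 13 of 22 to 11 of 21. Camk2n1, an inhibitor of the kinase CaMKII, lay at 1565, 1578 and 1348 CPM in cortex and 468, 419 and 472 CPM in hippocampus (1.78, SE 0.14, adjusted p = 0.000160), and Camk2d, a subunit of that kinase, differed by 1.66 (SE 0.26). Hpca, the calcium sensor hippocalcin, lay at 294, 288 and 339 CPM in cortex and 878, 807 and 641 CPM in hippocampus (−1.29, SE 0.16, adjusted p = 0.00143). Of 55 synaptic vesicle and release genes, 13 were higher in cortex and 2 in hippocampus (8 and 2 in each fit that left out 1 library), with Rims3, an active zone protein, at 2.05 (SE 0.25). Other abundant genes with at least a 2-fold difference included Arhgap32 (1.42, SE 0.14) and Atp2b2, a plasma membrane calcium pump (1.15, SE 0.14), both higher in cortex.

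Immediate early genes, which neurons switch on after activity, gave 9 higher in cortex and 3 in hippocampus of 42, with a median of 0.37, but 3 of these 12 passed in each fit that left out 1 library. The study's publication dwells on such genes, so their choice is not independent of it. Egr1, a zinc finger factor, lay at 277, 219 and 230 CPM in cortex and 84.1, 87.2 and 106 CPM in hippocampus (1.44, SE 0.16, adjusted p = 0.000728). Fos lay at 23.1, 15.5 and 27.7 CPM against 8.27, 7.22 and 14.4 CPM (1.21, SE 0.30, adjusted p = 0.0400). This call was lost without cortex wild type 1 (adjusted p = 0.0882) or 3 (0.182) and without hippocampus wild type 1 (0.165) or 2 (0.16). Nr4a3, an orphan nuclear receptor, went the other way at 69.0, 36.7 and 45.8 CPM in cortex and 118, 113 and 107 CPM in hippocampus (−1.10, SE 0.22, adjusted p = 0.0162), and missed the threshold without hippocampus wild type 2 (adjusted p = 0.0680) or cortex wild type 3 (adjusted p = 0.0991). Fos was named after its values were seen. Clock genes gave 4 and 0 of 21 (19.0% called, against 7.72% of all genes tested), led by Rorb and Rora. Adult neurogenesis genes gave 3 and 1 of 26 (15.4%). Of these 4 neurogenesis calls, 1 passed in each fit that left out 1 library, that of Stmn1, a microtubule destabilizer higher in cortex (1.36, SE 0.16). That 1 of 26 is near the share over all genes tested, 565 of 15952.

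Glial and vascular genes were called near or below the 7.72% background. None of 28 oligodendrocyte, 18 microglia, 21 endothelial and mural, 13 ependymal and 5 blood genes passed. Mbp, the myelin basic protein gene, lay at 1380, 1190 and 1717 CPM in cortex and 1713, 1356 and 1559 CPM in hippocampus (−0.06, adjusted p = 0.903). P2ry12, a receptor of resting microglia, differed by 0.51 (adjusted p = 0.215). Among 29 astrocyte genes, Gfap, an intermediate filament, was higher in hippocampus at 254, 235 and 236 CPM against 150, 83.1 and 123 CPM (−0.97, SE 0.21, adjusted p = 0.0202), though not without hippocampus wild type 2 (adjusted p = 0.0741) or cortex wild type 3 (adjusted p = 0.0940). Chrdl1, also on the astrocyte list, was higher in cortex, and the other 27 did not pass. Of 13 oligodendrocyte precursor genes, Cacng4 passed.

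Housekeeping groups held no called gene. Of 79 cytosolic ribosomal protein genes, 78 had a log2 fold change below 0, with a median of −0.22, but this median lay between −0.44 and 0.18 over the alternative fits, and in knockout 68 of 79 were above 0 with a median of 0.12. For 78 nuclear genes of oxidative phosphorylation the medians were −0.14 in wild type (−0.39 to 0.19) and 0.17 in knockout. Of 13 brain long noncoding RNAs none passed. Cdr1as itself, counted as Cdr1asG, lay at 949, 1159 and 711 CPM in cortex and 411, 347 and 699 CPM in hippocampus. The 2 groups did not overlap, but cortex wild type 3 and hippocampus wild type 3 lay close together, and the difference missed the threshold (1.01, SE 0.27, adjusted p = 0.0546, edgeR). It passed in 4 of the 17 alternative fits, among them DESeq2 (adjusted p = 0.00680) and the fit without hippocampus wild type 3 (adjusted p = 0.0213). The lowest adjusted p over the alternatives was 0.00289. None of the 7 tested loci of the Cdr1as and miR-7 network passed, and 1700020I14Rik, the noncoding RNA also called Cyrano, came nearest after Cdr1as (0.44, adjusted p = 0.0839).

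The regional contrast was repeated in the 3 cortex and 3 hippocampus libraries from knockout mice, which share no sample with the wild-type fit. Of 16174 genes tested there, 2948 (18.2%) passed, 1619 higher in cortex (10% of those tested) and 1329 higher in hippocampus (8.22%), and without cortex knockout 2 the count was 5499. Of the 1232 wild-type calls, 1221 were tested in knockout, 1217 had the same direction, 1121 (91.8%) passed in the same direction and 0 passed in the opposite one. Read the other way, 38.5% of the 2911 knockout calls tested in wild type passed there too. The median size of the difference over these 1221 genes was 1.16 in wild type and 1.14 in knockout on the log2 scale. Log2 fold changes of the 2 genotypes correlated at r = 0.84 across 15758 genes, as a description, since genes are not independent replicates. Dsp differed by −6.93 in wild type and −6.87 in knockout, Lamp5 by 2.45 and 2.46, Gria1 by −1.26 and −1.46, Gabra5 by −1.70 and −1.71 and Nr3c2 by −2.12 and −2.30. Among the few wild-type calls with the opposite sign in knockout was Eomes, described next.

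**Figure D5:**
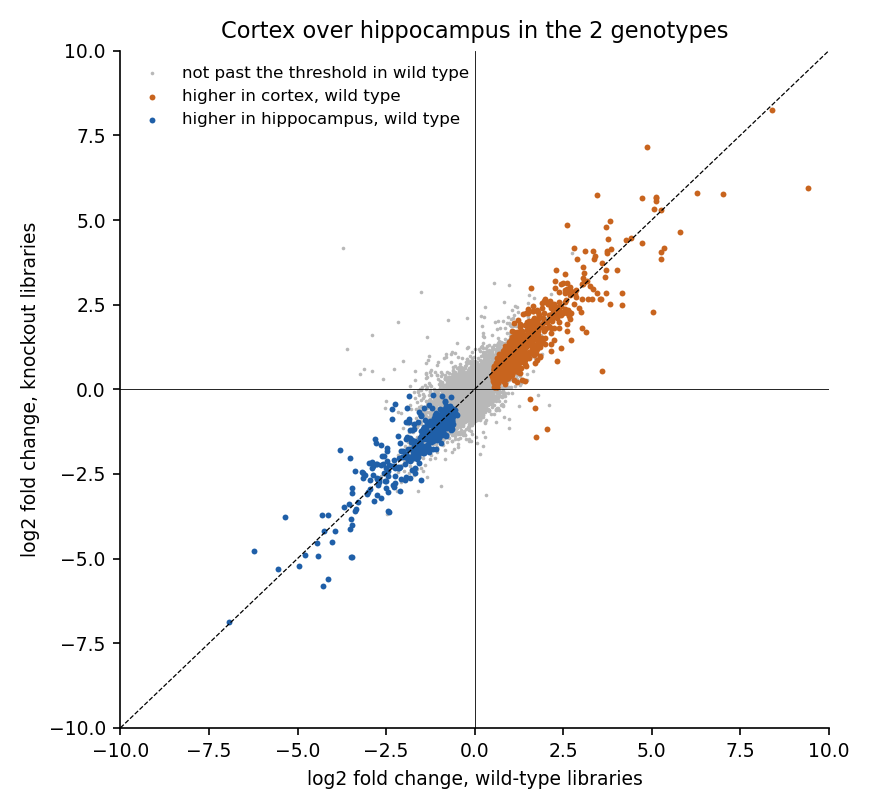
Log2 fold change of cortex over hippocampus in knockout (vertical axis) against wild type (horizontal axis), 1 point per gene tested in both, with the line of equal values dashed. Of the coloured wild-type calls, 1217 of 1221 share their sign with the knockout value.

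The difference between the 2 genotypes' regional contrasts was tested as an interaction over the 12 libraries. Of 16708 genes, 0 passed (0%) in edgeR and 0 in DESeq2, 484 (2.90%) had an unadjusted p under 0.05 in edgeR, and the smallest adjusted p was 0.999. The 5 genes with the smallest p were Eomes, Sema5a, Nectin3, Wnt9b and Frmd7. Eomes, a T-box factor of intermediate progenitors and olfactory bulb projection neurons, lay at 3.75, 2.62 and 1.81 CPM in wild-type cortex and 1, 0.617 and 0.882 CPM in wild-type hippocampus (1.73, SE 0.39, adjusted p = 0.0276), a call lost in 4 of the 6 fits that left out 1 library (adjusted p up to 0.116). In knockout its log2 fold change was −1.42, and the interaction had an unadjusted p of 0.000348 that did not survive adjustment. Sema5a, a semaphorin, was higher in hippocampus by −1.08 in wild type and −1.76 in knockout. Without hippocampus wild type 2, 3 genes passed the interaction test: Clic6 (−4.96, adjusted p = 0.00180), Enpp2 (−2.72, adjusted p = 0.00180) and Sulf1 (−2.56, adjusted p = 0.0498). That fit kept hippocampus wild type 1 and 3, with choroid plexus sums of 2353 and 1991 CPM. The knockout hippocampus libraries were at 48.1, 48.6 and 40.9 CPM. Clic6 is on the choroid plexus list. Enpp2 lay at 994, 124 and 1211 CPM in wild-type hippocampus and averaged 148 CPM in knockout hippocampus, near hippocampus wild type 2. The part of choroid plexus in these calls was not tested.

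Across the 4 wild-type regions, scaled together, genes that separate cortex from hippocampus differed in where else they were found. Dsp averaged 91.9 ± 12.8 CPM (SD, n = 3) in hippocampus and 0.716, 1.96 and 3.15 CPM in cortex, cerebellum and olfactory bulb. Prox1 averaged 182 ± 28.1 CPM in hippocampus and 97.6 ± 3.36 CPM in cerebellum, against 32.5 CPM in cortex and 7.24 CPM in olfactory bulb. Mef2c averaged 792 ± 83.8 CPM in cortex and 387 ± 37.1 CPM in olfactory bulb, above its 154 ± 32.2 CPM in hippocampus. Sema3a averaged 57.9 ± 5.48 CPM in cortex and 57.2 ± 5.25 CPM in olfactory bulb, within 1 SD of each other, against 7.07 ± 2.48 CPM in hippocampus. Gabra5 averaged 159 ± 33.3 CPM in hippocampus, 111 ± 5.02 CPM in olfactory bulb, 47.4 ± 6.76 CPM in cortex and 1.39 CPM in cerebellum. These levels are descriptions, with no test across the 4 regions.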

How the data were processed

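Total RNA of 24 libraries was measured by the authors as read counts per gene, and the deposited raw counts of the 6 wild-type cortex and hippocampus libraries were analysed, with the 6 knockout libraries of both regions for the repeat and the interaction. Alternative fits also took in all 12 wild-type libraries or all 24 libraries. RNA was extracted with TRIzol, depleted of ribosomal RNA with RNase H and made into stranded total RNA libraries, per the labels' protocols. The submitters' processing notes name bcl2fastq 2.17.1.14, STAR 2.5.1b, HTSeq 0.6.1p1 and the mm9 build. The strand setting of the counting was not given in the sources used here, so reads of a gene and of an overlapping antisense gene may not be separable. Summary entries were left out of library sizes: no feature 20.3 to 56.2%, not unique 10.8 to 21.4% and ambiguous 0.24 to 0.45% of reads. Of 37621 gene entries, 32897 (98.47% of the counts) were named from GENCODE vM21, used for names only.

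Depth was 9.90 to 27.36 M gene counts per wild-type library, which sets the precision for low genes. Genes were filtered with a minimum count of 10 and tested with edgeR 4.0.16 (TMM scaling, robust quasi-likelihood F-test, R 4.3.3), fitted without a replicate block and adjusted over all genes tested by Benjamini-Hochberg at 0.05. SE is the log2 fold change divided by the square root of F. CPM uses the TMM scaling of the 6 libraries, and log2 CPM a prior count of 2. Alternatives were DESeq2 1.42.0, limma 3.58.1 (voom), other scalings and filters, other sets of libraries, a covariate and leaving out each library. Only the main wild-type edgeR fit was tried on simulated counts.

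The comparison, the gene lists and the rule for named genes were chosen with earlier results of these data known. The rule took the 12 largest changes in each direction above a mean log2 CPM of 2, up to 4 called members of each list with both directions represented or else the 2 of smallest p, the 5 smallest interaction p, the 8 most abundant genes with at least a 2-fold difference, and a set of fixed genes. Other genes named, such as Cux2, Fezf2, Tle4, Bcl11b, Calb1, Wfs1, Meis2, Gad1, Pvalb, Sst, Ttr and Mbp, were chosen after their values were seen, except those in the paragraph on the interaction without 1 library, which are all that passed. No gene's level was compared with another gene's, because counts are not corrected for length. Results for a few genes are not reported here.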

Additional observations from a re-analysis of the deposited data

How the results depend on the processing

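The number of genes called moved with the settings. The 1232 wild-type calls became 640 to 1740 when 1 library was left out, 2262 with a covariate for the reads in no feature (1272 higher in cortex and 990 in hippocampus), 3579 with voom and sample quality weights (2005 and 1574) and 248 when a difference of at least 2-fold was tested (155 and 93), where fewer genes can pass by construction. DESeq2 called 1666. The 2948 knockout calls became 2011 to 5499 with 1 library left out. The interaction count of 0 became 3 without hippocampus wild type 2 and was 0 in each of the other alternatives. Of 134 named genes past the threshold, 78 passed the test of at least a 2-fold difference, 99 passed in every other alternative, and 0 changed direction. Most were picked for large differences in the main fit, so their stability does not stand for that of all calls. Of the 1232 calls, 565 passed in each fit that left out 1 library. Among named genes that had not passed, the direction changed for 5. With 1 library left out, Frmd7 lay between −0.26 (without cortex wild type 1) and 0.27, C230004F18Rik between −1.31 and 0.14 (without cortex wild type 1), Lhx2 between −0.19 (without cortex wild type 1) and 0.19, Hba-a1 between −0.06 (without hippocampus wild type 3; −0.05 without cortex wild type 2) and 0.22, and Wnt9b between −0.39 (without cortex wild type 3) and 0.52. With the covariate Frmd7 was at −0.18, C230004F18Rik at 0.05 and Lhx2 at −0.08, and with voom Lhx2 was at −0.06. The cause of these changes was not tested. The labels state no pairing, so replicate numbers were not taken as pairs in the main fit. Same-numbered cortex and hippocampus libraries deviated together at r = 0.46, 0.36 and −0.13, and differently numbered ones at −0.47 to 0.17. These values do not settle whether the numbers mark pairs. With the replicate number as a block, 1772 genes passed in wild type and 5130 in knockout, and 0 in the interaction. Depth limits low genes: Drd3, Oxt and Avp rest on few reads in hippocampus.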
